A study of Mus musculus with 2 samples.

Results

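The let-7 and miR-98 genes encode the let-7 family, microRNAs (miRNAs) that share 1 seed. The measurements cover 10 of the 1973 genes counted by microRNA-seq in lung tissue of newborn B6NCrl mice on postnatal day 0. The members were chosen by name and not by level. For 9 of them the reads on the gene's own strand were used. Reads at Mirlet7f-1 were taken from the opposite-strand column of Gm24111, an annotated gene on the other strand that covers it, and are given here under the name Gm24111. The samples form 1 group of 2 microRNA-seq libraries of small RNA, from pup 1 (replicate 1) and pup 3 (replicate 2) of pregnancy 1, each made from 2 lungs. The labels tie both pups to a single donor record, with a tissue sample each, name no treatment or altered allele, and state that the sex was not collected. No other age, tissue or treatment was analysed here, so the comparisons are between members and between the pups.

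let-7 miRNAs are cut from hairpin precursors by Drosha and Dicer, and the strand from the 5p arm is the one usually loaded into Argonaute. Its seed, bases 2 to 8, pairs with target mRNAs, which include those of Hmga2 and Lin28a. The family accumulates as tissues differentiate. In embryonic cells the RNA-binding protein LIN28 binds let-7 precursors and blocks their processing.

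The mature 5p sequences are shown because the levels described below are read beside how many genes encode each of them. Letters run 5′ to 3′, are from RefSeq on GRCm38.p6, and have the seed in capitals. All 10 genes were matched. They encode 8 different 5p sequences with 1 shared seed, and each has 22 bases.
let-7g-5p: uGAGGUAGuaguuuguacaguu
let-7i-5p: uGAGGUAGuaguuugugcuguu
let-7d-5p: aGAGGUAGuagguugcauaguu
let-7b-5p: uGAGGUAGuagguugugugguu
let-7f-5p (Mirlet7f-1 and Mirlet7f-2): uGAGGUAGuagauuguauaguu
miR-98-5p: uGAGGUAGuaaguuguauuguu
let-7c-5p (Mirlet7c-1 and Mirlet7c-2): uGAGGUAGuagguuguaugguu
let-7a-5p (Mirlet7a-1): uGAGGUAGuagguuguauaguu

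Outside the seed the members differ at few bases. With positions counted from 1 at the 5′ end and the base of let-7a-5p given first, let-7c-5p differs from let-7a-5p by A19G and let-7f-5p by G12A. Each of these is 1 difference. let-7b-5p differs by A17G and A19G, let-7g-5p by G12U and U18C, and miR-98-5p by G11A and A19U. let-7d-5p has U16C and is the only one of the 8 to differ at the base before the seed, by U1A. let-7i-5p is the most distant from let-7a-5p, with 4 differences, namely G12U, A17G, U18C and A19U. It shares 2 of these with let-7g-5p.

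The tissue label was checked against miRNAs known from lung cells. Mir126a of endothelium averaged 160649 counts per 1000000 reads on miRNA genes (CPM), Mir143 of smooth muscle and fibroblasts 67837, Mir449a of multiciliated cells 17777, and the epithelial Mir429 and Mir200c 11543 and 9839. The liver miRNA Mir122 averaged 49.5 CPM and the skeletal muscle miRNA Mir206 had 9.04 and 17.0 CPM in pup 1 and pup 3, with Mir208a and Mir208b of heart at 114 and 299 CPM and the blood miRNAs Mir451a and Mir223 at 889.9 and 1307 CPM on average. The libraries held 4532902 (pup 1) and 5426081 (pup 3) own-strand reads on miRNA genes. Their gene counts differed by more than counting noise, with a chi-square of 75.3 per degree of freedom, so they are not 1 library deposited again. This does not show that they come from separate animals, and with a single donor record the spread between them may be technical. Reads that mapped to several places made up 34.6% and 36.7% of all reads in pup 1 and pup 3, and they are in no gene row.

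The let-7 family was abundant in the newborn lung. The 10 members together held 456266 reads in pup 1 and 595485 reads in pup 3, a level of 100656 and 109745 CPM. This is 10.5% ± 0.643 of the reads on miRNA genes (SD, n = 2). Reads that mapped to several places are in neither the family total nor the library total. The exact Clopper-Pearson 95% interval of the share was 10.0380% to 10.0934% in pup 1 and 10.9482% to 11.0008% in pup 3. These intervals, and all others given, cover counting error only and leave out spread between animals. They treat each read as a separate molecule. PCR copies are no separate molecules, so the intervals may be too narrow even for counting error. In bulk tissue, fewer cells of a type and less RNA per cell cannot be told apart.

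The members spanned a wide range of levels. The mature miRNAs have 21 or 22 bases and the libraries were made from RNA under 30 bases, so levels of different members are compared as CPM without a correction for length. Mirlet7g was the highest, with 44321 CPM in pup 1 and 51282 CPM in pup 3, from 200904 and 278259 reads. It stood at rank 5 of all miRNA genes in each library. Mirlet7i followed with 29409 and 29546 CPM in pup 1 and pup 3, at rank 8 in each. Mirlet7d had 12783 and 14044 CPM in pup 1 and pup 3. These 3 genes lay above every other member in both libraries and made up 85.9% of the family in pup 1 and 86.4% in pup 3. Mirlet7g alone took 45.4% ± 1.91 of it (SD, n = 2). These are shares of counted reads, and any let-7 reads with several places are missing from them.

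**Figure D1:**
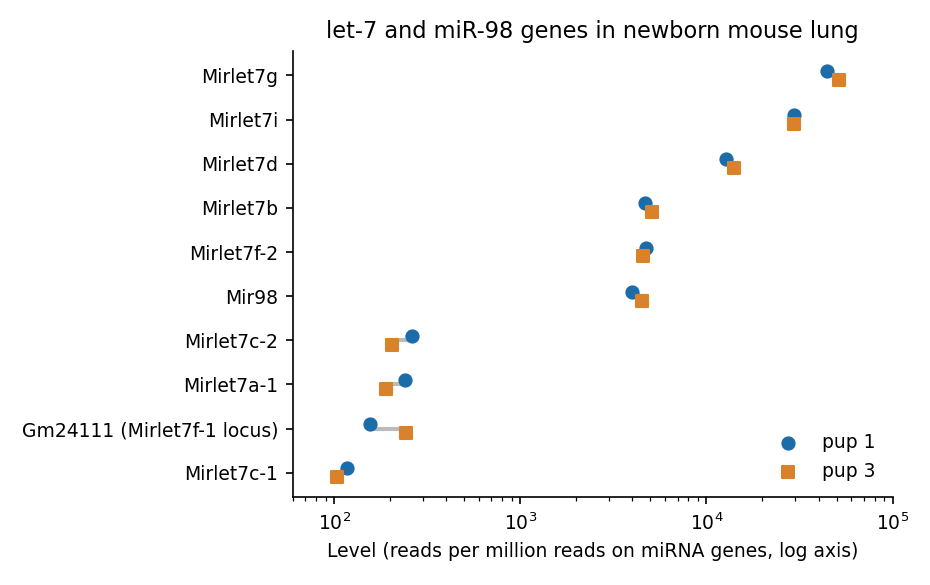
Level of each member in CPM (log axis), with pup 1 as circles and pup 3 as squares, 1 point per library. Mirlet7g at 44321 and 51282 CPM leads, 3 members lie between 4000 and 5099 CPM, and the lowest 4 lie at 261 CPM or less.

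A middle set of 3 genes had levels close to each other. Mirlet7b had 4659 and 5099 CPM in pup 1 and pup 3. Mirlet7f-2 had 4710 and 4537 CPM, and Mir98 had 4000 and 4496 CPM. Mirlet7b and Mirlet7f-2 changed places between the pups, so their order is not settled by these libraries. Mirlet7f-2 lay above Mir98 in each library, by 0.24 on the log2 scale in pup 1 and by 0.01 in pup 3.

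The lowest 4 members stood far below. Mirlet7c-2 had 261 and 204 CPM in pup 1 and pup 3, and Mirlet7a-1 had 239.6 and 189 CPM. Gm24111, for the Mirlet7f-1 locus, had 157 and 244 CPM. Mirlet7c-1 was the lowest with 118 and 103 CPM, from 533 and 561 reads. The ranges of Mirlet7c-2, Mirlet7a-1 and Gm24111 overlapped, and Mirlet7c-1 lay below all of them in both libraries. The highest of these 4 was 15.3-fold (pup 1) and 18.5-fold (pup 3) below the lowest of the middle set. All 4 together held 0.770% of the family's reads in pup 1 and 0.675% in pup 3. In counted reads, which lack those with several places, Mirlet7g exceeded Mirlet7c-1 by 377-fold in pup 1 and 496-fold in pup 3. Of the 9 pairs of neighbours in the order by mean level, 7 had the same order in each library. No p is given for these differences, since the smallest that a two-sided exact sign-flip test over 2 libraries can give is 0.5.

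**Figure D2:**
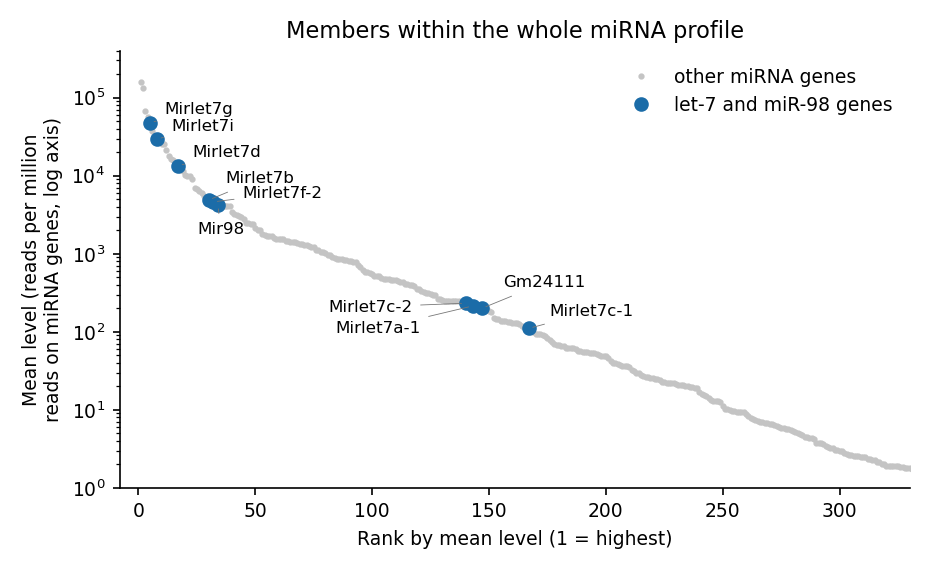
Mean level over the pups (CPM, log axis) against rank for the higher ranks of miRNA genes, with the members as large points. Mirlet7g, Mirlet7i and Mirlet7d sit highest of the members, and Mirlet7c-1 sits lowest of them at 110.5 CPM. Mirlet7d had rank 17 in pup 1 and rank 16 in pup 3.

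Mirlet7g was set beside the genes next to it that are not of the family. Mir335, the next above, averaged 57219 ± 987 CPM, and Mir26b, the next below, averaged 37674 ± 4704 CPM, against 47802 ± 4922 CPM for Mirlet7g (SD, n = 2 each). The libraries of Mirlet7g lay between those of these genes without overlap. No gene was named for a pattern like that of a member, because 2 libraries of 1 condition give only 1 ratio per gene.

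The number of genes that encode each mature sequence ran beside the levels. Mirlet7g, Mirlet7i, Mirlet7d, Mirlet7b and Mir98 each have a 5p sequence found at no other miRNA locus of the annotation. These 5 genes had levels from 4000 to 51282 CPM and held 94.9% ± 0.453 of the family's reads (SD, n = 2). The other 5 have a 5p sequence found at 1 other locus, let-7a-5p at Mirlet7a-2, let-7c-5p at both Mirlet7c genes and let-7f-5p at both Mirlet7f genes. They had levels from 103 to 4710 CPM, with Mirlet7f-2 the highest and the remaining 4 at no more than 261 CPM. Reads with several places are counted in no gene, so the levels of these 5 are counts of the reads that could be placed, and the summed level of let-7a, let-7c or let-7f cannot be read from them. How far this sets the order of the members was not tested.

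The length from which a read occurs at 1 miRNA locus only was computed from the hairpins and the miRNA transcripts of the annotation. The rest of the genome was not searched, so this is not the length a read needs to be placed and counted. A read that begins at the first base of the 5p sequence is found at 1 miRNA locus only from 17 bases onward for Mirlet7g, Mirlet7i and Mirlet7b, and from 15 or fewer for Mirlet7d and Mir98. For Mirlet7f-1 and Mirlet7f-2 it takes 23 bases, 1 more than the mature sequence. For Mirlet7a-1, Mirlet7c-1 and Mirlet7c-2 it takes 24 bases, 2 more than the mature sequence. The 3p arms add a second difference between the low members. The 3p sequences of Mirlet7a-1 and Mirlet7c-2 are the same in all 22 bases, so neither arm of these genes is unique, whereas the 3p sequences of Mirlet7c-1, Mirlet7f-1 and Mirlet7f-2 are found at no other miRNA locus. The counts join the arms of a precursor, so which arm gave the reads of a gene was not measured.

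**Figure D3:**
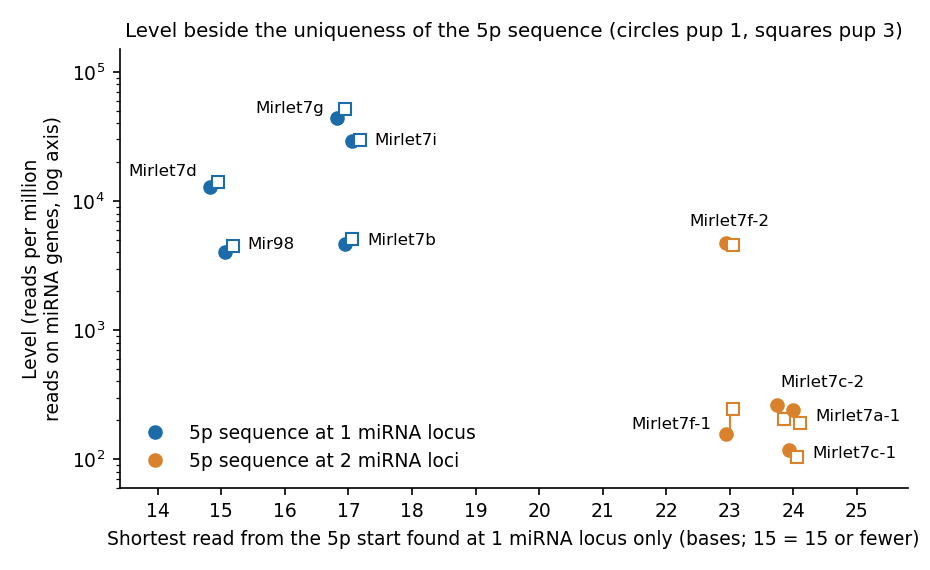
Level of each member (CPM, log axis) against the shortest read from the start of its 5p sequence that is found at 1 miRNA locus only, in bases. Circles are pup 1 and squares pup 3, points are set apart sideways for legibility, and Mirlet7f-2 at 23 bases stands with the middle set while the other members at 23 or 24 bases are the lowest 4.

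Mirlet7f-2 and Mirlet7f-1 show the same 5p sequence at very different counted levels, and their hairpins are given for that reason, with the mature arms in capitals. Mirlet7f-2 lies at chrX:151912346-151912428 on the plus strand and Mirlet7f-1 at chr13:48537829-48537917 on the minus strand. The base after the 5p sequence is U in Mirlet7f-2 and G in Mirlet7f-1.
Mirlet7f-2: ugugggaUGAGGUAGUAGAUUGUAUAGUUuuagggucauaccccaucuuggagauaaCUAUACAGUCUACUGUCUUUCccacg
Mirlet7f-1: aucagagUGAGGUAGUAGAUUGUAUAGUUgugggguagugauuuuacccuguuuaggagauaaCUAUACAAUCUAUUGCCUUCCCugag
Mirlet7f-2 had 21350 and 24616 reads in pup 1 and pup 3, against 710 and 1322 reads for the Mirlet7f-1 locus. A read of the mature 5p sequence alone fits both loci, so these counts do not give the share of let-7f from each. The Gm24111 row held 0 and 1 reads on its own strand.

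The hairpins of Mirlet7a-1 and Mirlet7c-2 are shown to compare 2 genes with 1 shared 3p sequence. Mirlet7a-1 lies at chr13:48538179-48538272 on the minus strand and Mirlet7c-2 at chr15:85706603-85706697 on the plus strand. The mature arms are in capitals.
Mirlet7a-1: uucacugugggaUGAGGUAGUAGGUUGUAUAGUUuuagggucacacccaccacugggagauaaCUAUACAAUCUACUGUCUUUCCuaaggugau
Mirlet7c-2: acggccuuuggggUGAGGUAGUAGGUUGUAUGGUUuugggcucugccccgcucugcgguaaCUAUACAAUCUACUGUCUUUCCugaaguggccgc
Mirlet7c-2 exceeded Mirlet7a-1 by 0.12 on the log2 scale in pup 1 and by 0.11 in pup 3. Their counted levels were thus close in each library. Both arms of each gene have a copy at another miRNA locus, and reads with several places are not counted. The levels of the genes themselves cannot be compared from these counts.

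Members that lie side by side were compared next, since miRNAs of a cluster are often cut from a shared transcript. On chromosome 13, Mirlet7a-1, Mirlet7f-1 and Mirlet7d lie within 2261 bases on the minus strand, and each overlaps an exon of the long non-coding RNA 6720427I07Rik. Mirlet7d exceeded Mirlet7a-1 by 5.98 ± 0.34 and the Mirlet7f-1 locus by 6.10 ± 0.35 on the log2 scale (SD, n = 2), which are ratios of 63.0 and 68.6. Mirlet7a-1 lay above the Mirlet7f-1 locus in pup 1, by 0.61 on the log2 scale, and below it in pup 3, at -0.37. On chromosome 15, Mirlet7c-2 and Mirlet7b lie 621 bases apart on the plus strand, in exons of the non-coding gene Lncppara. Mirlet7b exceeded Mirlet7c-2 by 4.40 ± 0.34, a ratio of 21.1. Mirlet7d and Mirlet7b have a 5p sequence of their own, and the genes below them do not.

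The pair on chromosome X was close in counted reads. Mirlet7f-2 and Mir98 lie 785 bases apart on the plus strand in an intron of Huwe1, which encodes a ubiquitin ligase. Their ratio was 1.18 in pup 1 and 1.01 in pup 3, with Mirlet7f-2 the higher. On chromosome 16, Mirlet7c-1 lies in an intron of Mir99ahg on the plus strand, opposite an intron of Gm11146, and 656 bases from Mir99a. Mir99a had 32278 and 30933 CPM in pup 1 and pup 3, and Mir125b-2, of the same host gene, had 239 and 256 CPM. In counted reads, Mir125b-2 stood above Mirlet7c-1 with a log2 ratio of 1.16 ± 0.20 (SD, n = 2), and Mir99a with one of 8.16 ± 0.088. A mature sequence of Mirlet7c-1 is also found at another miRNA locus, and reads with several places are not counted. Whether Mir99a or Mir125b-2 has such a copy was not tested. The levels of these genes themselves cannot be compared from the counts.

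**Figure D4:**
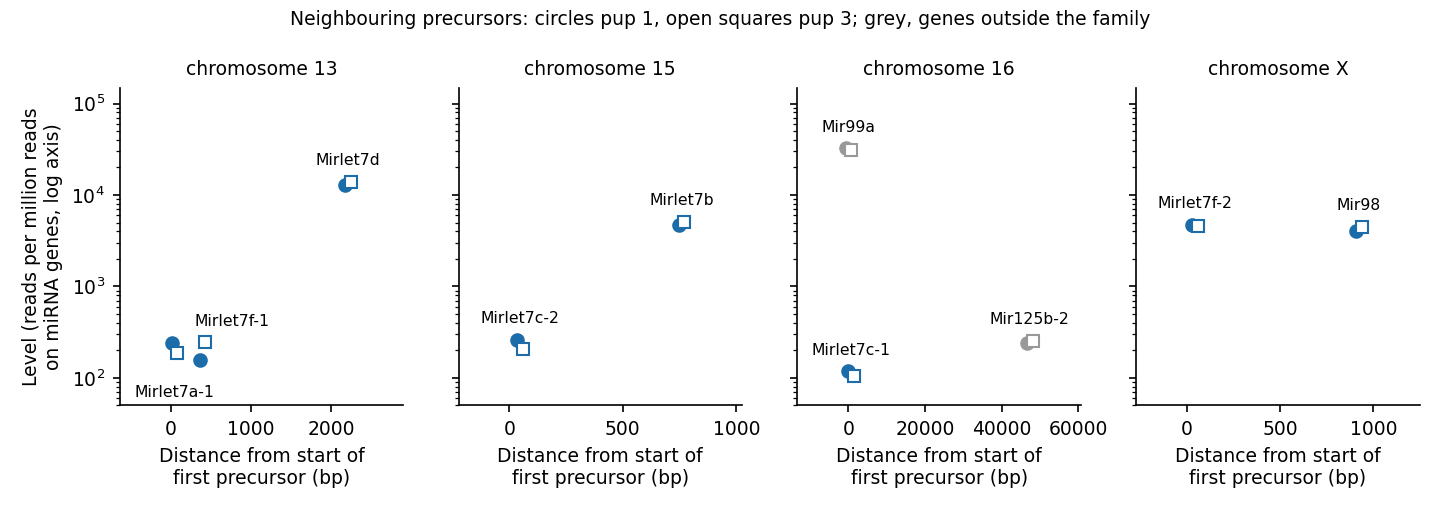
Level (CPM, log axis) against the distance in base pairs from the start of the first precursor for the 4 groups of neighbouring precursors. Circles are pup 1, open squares pup 3 and grey points genes outside the family. In counted reads, Mirlet7d and Mirlet7b stand far above their neighbours, while Mirlet7f-2 and Mir98 are close to each other. Reads with several places are not counted.

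Mirlet7g and Mirlet7i, the highest members, lie alone. Mirlet7g is at chr9:106178840-106178927 on the plus strand, in an intron of Wdr82, which encodes a subunit of histone methyltransferase complexes. Mirlet7i is at chr10:122985640-122985724 on the minus strand and overlaps an exon of D630033A02Rik, a transcribed pseudogene. The remaining positions are chr13:48536012-48536114 for Mirlet7d on the minus strand, chr15:85707319-85707403 for Mirlet7b, chr16:77599657-77599750 for Mirlet7c-1 and chrX:151913214-151913321 for Mir98, all 3 on the plus strand. Coordinates are on GRCm38, the assembly of mm10, on which the authors' tables rest.

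The loops between the arms were searched for GGAG, the element that LIN28 is known to bind in let-7 precursors. The search used the RNA strand only. GGAG was found in the loops of 7 of 10 members, 3 or 4 bases before the 3p arm, and it was absent from the hairpins of Mirlet7b, Mir98 and Mirlet7c-2. Of the 1005 mouse hairpins in the RefSeq table, 44.5% hold GGAG somewhere. A loop with the letters and a loop without them are shown, with GGAG in capitals.
Mirlet7g: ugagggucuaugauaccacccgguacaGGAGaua
Mirlet7b: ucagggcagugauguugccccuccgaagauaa
Members with GGAG ranged from Mirlet7c-1 to Mirlet7g, the lowest and the highest of the family, and those without it stood at 204 to 5099 CPM.

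Other genes with the let-7 seed add little beside these. Mirlet7a-2, whose hairpin holds the let-7a-5p sequence too, had 143 and 121 CPM in pup 1 and pup 3. The Mirlet7e locus, counted on the opposite strand of the Gm25927 row, had 2804 and 3101 CPM. With these 2 loci the family reached 108285 CPM on average, against 105201 CPM without them. Mir1961 and Mir7k, the gene of let-7k, had 0 reads in each library, as did Mir202, which was looked up by name. For reads with 1 place, a count of 0 allows up to 0.662 CPM in pup 1 and 0.553 CPM in pup 3. Here 3 reads were taken as the limit. Mirlet7j was also looked up by name and had no row under that symbol. A row under the symbol Mir7j averaged 36.4 CPM over the libraries. Whether it is the gene of let-7j was not tested.

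The libraries of the pups were then compared for each member. The two-sided exact binomial test of each gene's split of reads, with Benjamini-Hochberg adjustment over 376 genes, was passed by 8 of 10 members, with 3 higher and 5 lower in pup 1 than in pup 3. Of all genes tested, 42.6% passed, 23.1% as higher and 19.4% as lower in pup 1. Of the 168 genes with a sum of 1000 reads or more, to which all members belong, 71.4% passed. The members' share of 80% lies near that of these deeply read genes. The test compares 2 libraries and includes no spread between animals. The median size of the log2 ratio was 0.18 over the members, 0.22 over all genes tested and 0.16 over the deeply read ones.

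The 3 changes with the largest size were in low members. Gm24111 was lower in pup 1, at a log2 ratio of -0.64 (95% interval -0.77 to -0.50) and an adjusted p of 3.15e-21 in the exact binomial test. Mirlet7c-2 was higher in pup 1 by 0.35 (0.23 to 0.47, adjusted p of 2.27e-08 in the same exact test) and Mirlet7a-1 by 0.34 (0.22 to 0.47, adjusted p of 2.49e-07, exact). Mirlet7c-1 stood at 0.19 (0.01 to 0.36) and did not pass, with an adjusted p of 0.0748 in the exact test. Mirlet7a-2, the other gene of let-7a-5p, stood at 0.24 with an adjusted p of 0.00817 (exact).

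Among the abundant members, Mirlet7g was lower in pup 1, at a log2 ratio of -0.21 (-0.22 to -0.20). The log10 of its adjusted p in the exact test was -542, at the highest depth of the family and a smaller ratio than those of Gm24111, Mirlet7c-2 and Mirlet7a-1. Mir98 stood at -0.17, Mirlet7d at -0.14 and Mirlet7b at -0.13, each lower in pup 1 and past the test. Mirlet7i stood at -0.01 (-0.02 to 0.00), with an adjusted p of 0.353 in the exact test. It passed under other scalings, at -0.08 with TMM factors and at 0.06 with all reads of the library. Mirlet7f-2 stood at 0.05 with an adjusted p of 0.000214 (exact), a call that depends on the scaling of the libraries. With TMM factors its ratio was -0.02 and it did not pass, and 2 members were then higher and 6 lower in pup 1. Over all genes the test called 87 higher and 73 lower in pup 1, 61 higher and 102 lower with TMM factors, and 108 higher and 56 lower with all reads of the library. The family as a whole stood at -0.12 on the log2 scale, with 100656 CPM in pup 1 and 109745 CPM in pup 3.

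**Figure D5:**
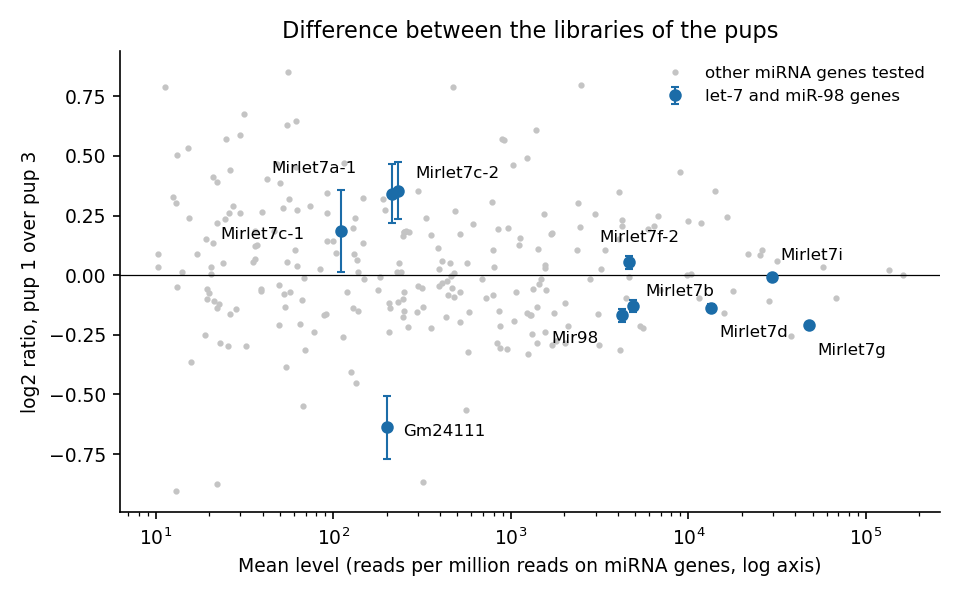
log2 ratio of pup 1 over pup 3 against the mean level (CPM, log axis) for the 252 tested genes with a mean of at least 10 CPM. Members are large points with exact 95% counting intervals. Gm24111 at -0.64 lies lowest of the members, Mirlet7c-2 at 0.35 and Mirlet7a-1 at 0.34 lie highest, and the abundant members lie between -0.21 and 0.05.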

How the data were processed

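Small RNA of 2 newborn mouse lungs per library was sequenced in 2 libraries, which were treated as 1 group. The authors deposited whole-number read counts per gene without normalization, with mm10 as the assembly and M4 as the annotation, per the deposited descriptions. The aligner, counting program and trimming were not given in the sources used here. In each table the first of 3 count columns is the sum of the others, which were read as own and opposite strand. Own-strand reads made up 98.2% and 98.0% of reads on genes in pup 1 and pup 3. The 4 rows that name no gene hold 45.2% and 47.8% of all reads and stayed out of library sizes and tests. One of them holds the reads mapped to several places.

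Levels are reads per 1000000 own-strand reads on gene rows (CPM). Members were matched by Ensembl identifier through GENCODE M21 on GRCm38, the assembly of mm10. Of the 1973 gene rows, 1894 matched an M21 gene, each of them an miRNA gene, and 79 did not and kept their identifiers. For Gm24111 the opposite-strand count took the place of its own-strand count. Mature and hairpin sequences are from the RefSeq table of GRCm38.p6. Copies were searched without mismatch, on both strands, in 2202 miRNA transcripts of M21. No genome sequence was used, so copies elsewhere in the genome are not counted. Precursors at most 10000 bases apart on 1 strand were treated as neighbours, and Mir125b-2 was added as a precursor in the host gene of Mirlet7c-1.

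Genes whose summed count reached 10 reads entered a two-sided exact binomial test, which sets a gene's split between the libraries beside that of their totals (Benjamini-Hochberg threshold 0.05). With 1 library per pup, edgeR's quasi-likelihood test could not be fitted. The test was tried on simulated counts with set changes and counting noise only. That cannot show how it behaves for these libraries, which differed by more than counting noise. Shares have exact Clopper-Pearson 95% intervals. Alternatives were the either-strand counts, all reads as the library size, TMM factors (edgeR 4.0.16), size factors (DESeq2 1.42.0), other count minimums, and leaving out Gm24111 or a library. Tools were Python 3.11.15, SciPy 1.17.1 and R 4.3.3.

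The members, gene lists and tests were chosen with earlier results of these data known. Named were the 10 members, other genes with the let-7 seed or looked up by name, and neighbouring precursors. The genes next above and below the highest member were named too.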

Additional observations from a re-analysis of the deposited data

Results flagged for a closer look

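Reads on the strand that was not counted stood above the limit that a count of 0 allows at 2 rows. The row of Mirlet7b held 4 such reads in pup 1 and 2 in pup 3, beside 21118 and 27668 counted reads. The row of Gm25927, which lies over Mirlet7e on the other strand, held 12709 in pup 1 and 16826 in pup 3, which are the reads given above for the Mirlet7e locus.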

How the results depend on the processing

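With all reads of the library in place of reads on miRNA genes, the family total was 56214 CPM, against 105201 CPM, since the larger total divides the same reads. Without 1 of the libraries it ranged from 100656 to 109745 CPM, and the share held by members with a 5p sequence of their own from 94.6% to 95.2%. For ratios of neighbouring precursors, leaving out a library of 2 only gives back the value of the other, and either-strand counts change these ratios little, since the rows hold few reads on the other strand, so neither tests their stability. With pup 3 alone the ratio of Mirlet7a-1 to the Mirlet7f-1 locus had the other sign. Between the pups, 63 of 69 alternatives for single members kept direction and call. Among them, other count minimums and leaving out Gm24111 cannot change a member's ratio, and either-strand counts change it little. That count therefore does not measure stability. Every change came with all reads of the library, TMM factors or DESeq2's size factors. Mirlet7i turned to 0.062 with all reads of the library, and was then past the test. It was also past the test with TMM factors, at -0.08, and with DESeq2's size factors, at -0.06. Mirlet7f-2 turned to -0.016 with TMM factors, and stood at 0.00 with DESeq2's size factors without passing. Mirlet7c-1 passed at 0.25 with all reads of the library. The count of members past the test ranged from 7, without Gm24111, to 10, with all reads of the library. The search for copies in the whole genome was not run, and a search of all transcripts of the annotation, chosen after seeing the data, gave the same share of 94.9%. No paired analysis was possible because the libraries form 1 group, with no second group to pair them with. Ratios between genes are taken within each library.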
